A study of Mus musculus with 2 samples.

Results

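The genes described here are 9 members of the NRF2 antioxidant pathway other than glutathione transferases: Nfe2l2, Keap1, Nqo1, Gclc, Gclm, Hmox1, Txnrd1, Srxn1 and Ephx1. They were chosen by symbol, and all 9 were found among the 22609 gene symbols of each count file. NRF2, the product of Nfe2l2, is a transcription factor that KEAP1 holds in the cytoplasm and presents to a ubiquitin ligase for degradation. Oxidants and electrophiles modify cysteines of KEAP1, NRF2 then accumulates, pairs with a small MAF protein and binds antioxidant response elements near its target genes. In liver these targets serve glutathione and thioredoxin metabolism, haem breakdown and the detoxification of quinones and epoxides.

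There were 2 bulk liver libraries from male C57BL/6 mice, 1 labelled Lrg1 knockout (whole-body loss of Lrg1, which encodes a secreted glycoprotein) and 1 from wild-type mice, given as C57BL/6J in the protocol. Both groups ate a diet with 45% of calories from fat, begun at 8 weeks of age and kept for 16 weeks, so neither library shows liver on ordinary chow. The labels leave unsaid how many mice gave RNA to each. A single library stood for each group, so nothing could be tested between genotypes or checked on replicates, and each difference is one between these libraries.

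The library labelled knockout had 18738397 reads in genes and the wild-type library 23311906. Levels are in CPM, reads relative to the size of each library after scaling by the trimmed mean of M-values (TMM), with exact Poisson intervals. Ratios are the library labelled knockout over wild type, with exact Clopper-Pearson intervals. All intervals are at 95% and cover counting error only. Lrg1 itself had 17572 reads in the library labelled knockout and 26958 in wild type, which goes against the label; which part of the gene was deleted is not known here, so directions below belong to that library as labelled. All 11 hepatocyte markers were measured, with Alb, serum albumin, at 1241979 reads in the library labelled knockout and 1793429 in wild type. Their log2 ratios ran from -0.54 for Cps1 to 0.66 for Tat.

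Across the pathway, 8 of the 9 genes stood within 1.5-fold between the libraries, and Nqo1 alone was at least 2-fold apart, lower in the library labelled knockout. Among all 11411 measured genes (at least 50 reads summed over both libraries), 4.20% were 2-fold apart and 2.49% were 2-fold lower. At 1.5-fold, 1 of the 9 genes was apart against 12.8% of all measured genes; it was lower, against 6.91%, and 0 were higher, against 5.89%. The members' median log2 ratio was -0.06, where the median of all measured genes was -0.01. Under TMM scaling, counting intervals excluded a ratio of 1 for 5 of the 9 genes, against 48.6% of measured genes, so such an interval was no rare property at this depth. Which genes these were depended on the scaling. All 9 passed the filter of 50 reads.

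**Figure D1:**
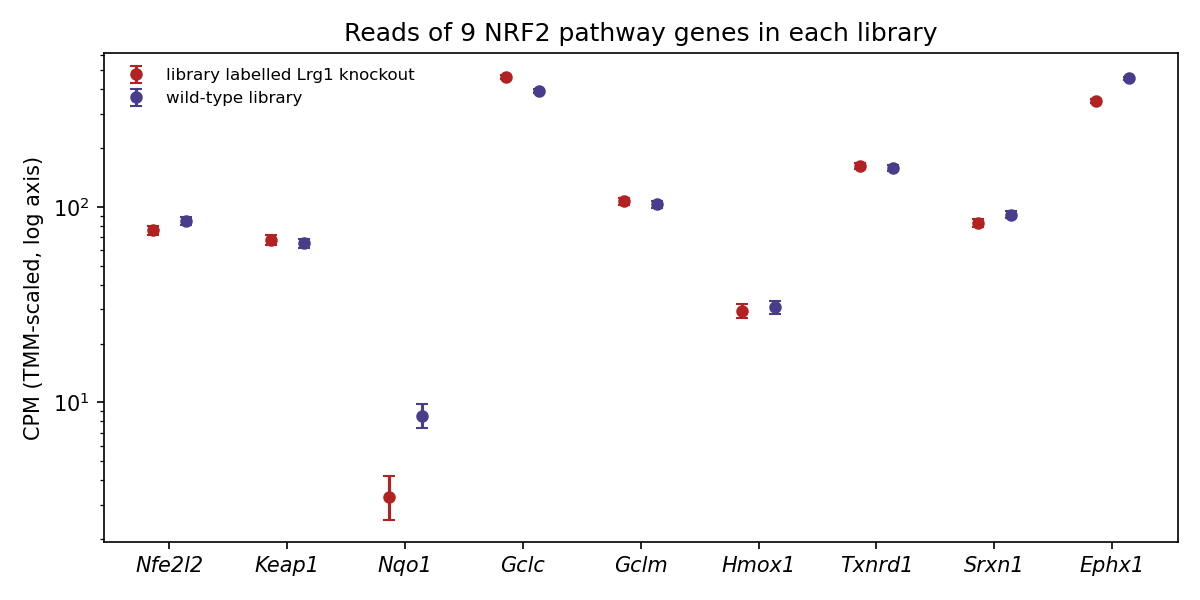
Level of each of the 9 genes in CPM (TMM-scaled, log axis) in the library labelled Lrg1 knockout (left point of each pair) and in the wild-type library (right point), with 95% Poisson intervals. Nqo1 is the least read gene and the pair farthest apart, at 3.27 and 8.56 CPM.

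The sensor pair came first. Nfe2l2, the transcription factor, had 1467 reads or 76.1 CPM (72.2 to 80.1) in the library labelled knockout, against 1915 reads or 84.5 CPM (80.8 to 88.4) in wild type. It was slightly lower, with a ratio of 0.900 (0.840 to 0.964) and a log2 ratio of -0.15. Keap1, its inhibitor, had 1308 reads or 67.8 CPM (64.2 to 71.6) in the library labelled knockout and 1475 reads or 65.1 CPM (61.8 to 68.5) in wild type. Under TMM scaling the counting intervals of Keap1 overlapped, and its ratio of 1.04 (0.966 to 1.12) included no difference. The ratio of Keap1 to Nfe2l2 reads within a library needs no scaling between libraries. It was 0.892 in the library labelled knockout and 0.770 in wild type, a ratio of ratios of 1.16 (exact conditional interval 1.05 to 1.28). NRF2 is controlled mainly through the stability of its protein, which these counts do not measure.

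The target genes carry antioxidant response elements, whose core is written TGACNNNGC, where N is any base. A form bound by NRF2 with small MAF proteins, TGANTCAGC, was searched as well after the sequences had been seen. Both patterns share the letters TGACTCAGC, so a site with these would count for each. The longer NF-E2 type of site, which contains both, had 0 matches in these genes. Windows of 300 bases, from 250 before to 50 after each annotated start, came from RefSeq on GRCm38.p6; 7 of the 9 genes had an entry, and Gclc and Hmox1 had none. On either strand the core was found in windows of 4 genes (Nfe2l2, Gclm, Srxn1, and Txnrd1 in 1 of its 3 windows). It was found in 12.4% of all 32851 windows of the same length. TGANTCAGC was found in 1 gene (Srxn1) and in 1.19% of windows. These shares are per window, and no share per gene was computed. No match was found for Nqo1, Ephx1 or Keap1, which says only that these letters are not in this window. Sequences are written 5′ to 3′ on the gene's strand with the match in capitals, and end at or just before the start. Gclm and Srxn1 are shown since they hold a match and differed little between libraries, Nqo1 and Ephx1 since they had the 2 lowest ratios of the 9. Sequences picked by ratio cannot show whether a match goes with a difference, which was not tested. Among those not shown in full, Keap1 had no match and a ratio of 1.04. Nfe2l2 had a match and a ratio of 0.900, and Txnrd1 a match and 1.03.
Gclm, chr3:122245307-122245556, plus strand, the core read on the opposite strand 134 bases before the start: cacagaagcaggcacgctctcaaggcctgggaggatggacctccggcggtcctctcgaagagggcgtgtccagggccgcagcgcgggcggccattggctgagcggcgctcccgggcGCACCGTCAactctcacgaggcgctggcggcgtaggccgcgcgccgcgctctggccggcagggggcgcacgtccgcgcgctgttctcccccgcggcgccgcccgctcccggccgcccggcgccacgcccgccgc
Srxn1, chr2:152105274-152105515, plus strand, TGANTCAGC on the gene's strand 45 bases before the start: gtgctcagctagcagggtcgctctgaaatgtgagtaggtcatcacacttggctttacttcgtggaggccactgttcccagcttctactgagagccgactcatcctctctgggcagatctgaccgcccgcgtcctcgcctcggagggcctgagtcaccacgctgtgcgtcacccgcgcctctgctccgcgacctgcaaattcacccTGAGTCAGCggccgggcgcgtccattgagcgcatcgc
Nqo1, chr8:107403207-107403455, minus strand, no match: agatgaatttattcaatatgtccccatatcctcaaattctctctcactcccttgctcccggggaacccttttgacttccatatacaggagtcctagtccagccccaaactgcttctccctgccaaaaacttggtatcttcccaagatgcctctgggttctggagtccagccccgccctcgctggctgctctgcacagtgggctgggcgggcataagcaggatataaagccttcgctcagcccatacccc
Ephx1, chr1:181017570-181017819, minus strand, no match: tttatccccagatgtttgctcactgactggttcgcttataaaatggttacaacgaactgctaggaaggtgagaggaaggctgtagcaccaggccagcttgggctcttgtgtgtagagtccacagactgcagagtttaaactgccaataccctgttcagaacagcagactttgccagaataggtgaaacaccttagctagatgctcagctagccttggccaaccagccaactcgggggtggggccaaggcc

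The other core matches are given as stretches of 29 bases around the motif. That of Nfe2l2 lay 240 bases before its start, in a window whose far end lies in an annotated exon. NRF2 is known to act on its own gene in mouse, but whether this match takes part was not tested. That of Txnrd1 lay on the opposite strand 92 bases before the second of 3 annotated starts. A further match in Srxn1, also on the opposite strand, began 28 bases after the start.
Nfe2l2, chr2:75704885-75704913, minus strand: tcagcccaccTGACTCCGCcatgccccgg
Txnrd1, chr10:82859104-82859132, plus strand: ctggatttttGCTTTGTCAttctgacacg
Srxn1, chr2:152105542-152105570, plus strand: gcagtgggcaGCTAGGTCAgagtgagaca

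Nqo1 encodes a reductase that turns quinones into hydroquinones without a radical step and is a common read-out of NRF2 activity. It had 63 reads or 3.27 CPM (2.51 to 4.18) in the library labelled knockout, against 194 reads or 8.56 CPM (7.40 to 9.86) in wild type. The intervals did not overlap: the ratio was 0.381 (0.282 to 0.509), a log2 ratio of -1.38, or 2.62-fold higher in wild type (1.96 to 3.54). The lower bound of that fold lay just under 2. Of 11411 measured genes, 137 had a lower ratio than Nqo1. Among the 3018 measured genes with 0.5 to 2 times the reads of Nqo1 (129 to 514 reads summed), 83 were 2-fold lower in the library labelled knockout, 2.75%. Relative to Gclm in the same library, Nqo1 was at 0.0306 reads per Gclm read in the library labelled knockout and 0.0827 in wild type. This gave a ratio of ratios of 0.369 (0.272 to 0.497). Against Txnrd1 reads this was 0.371 (0.274 to 0.498) and against Srxn1 reads 0.420 (0.309 to 0.566). These ratios also need no scaling between libraries, but they use the same Nqo1 reads and are no separate evidence.

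The subunits of glutamate-cysteine ligase, which makes the first step of glutathione synthesis, did not follow Nqo1. Gclc, the catalytic subunit, had 8931 reads or 463 CPM (454 to 473) in the library labelled knockout, against 8880 reads or 392 CPM (384 to 400.2) in wild type. It was the highest of the 9 genes by ratio, 1.18 (1.15 to 1.22) or 0.24 on the log2 scale, and 2370 of all measured genes had a higher ratio. Gclm, the modifier subunit, which lowers the enzyme's sensitivity to feedback by glutathione, had 2062 reads or 107 CPM (102 to 112) in the library labelled knockout and 2346 reads or 104 CPM (99.4 to 108) in wild type. Its ratio of 1.03 (0.973 to 1.10) included no difference. Reads of Gclc per Gclm read were 4.33 in the library labelled knockout and 3.79 in wild type, a ratio of ratios of 1.14 (1.07 to 1.22).

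The thioredoxin branch was nearly level. Txnrd1, the cytosolic selenoprotein that recharges thioredoxin with NADPH, had 3129 reads or 162 CPM (157 to 168) in the library labelled knockout and 3578 reads or 158 CPM (153 to 163) in wild type. Its intervals overlapped and its ratio was 1.03 (0.979 to 1.08). Srxn1, sulfiredoxin, which repairs over-oxidised peroxiredoxins, had 1602 reads or 83.1 CPM (79.1 to 87.2) in the library labelled knockout, against 2073 reads or 91.5 CPM (87.6 to 95.5) in wild type. The intervals of Srxn1 just failed to overlap, with a ratio of 0.908 (0.850 to 0.969) and a log2 ratio of -0.14, close to that of Nfe2l2.

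Hmox1, the inducible haem oxygenase that opens haem to biliverdin, iron and carbon monoxide, had 568 reads or 29.5 CPM (27.1 to 32.0) in the library labelled knockout and 696 reads or 30.7 CPM (28.5 to 33.1) in wild type. These values overlapped, with a ratio of 0.959 (0.857 to 1.07). Hmox1 is expressed in Kupffer cells, the resident macrophages of liver, as well as in hepatocytes, so macrophage markers are given beside it. Of 14 measured Kupffer cell and macrophage markers, 12 were lower in the library labelled knockout, from -2.04 for Marco, a scavenger receptor, to 0.15 for Clec4f, a lectin receptor of Kupffer cells, and 0 of the 14 were without reads. Their summed level was 607 CPM in the library labelled knockout and 784 CPM in wild type. In bulk tissue fewer cells of a type and less RNA per cell cannot be told apart, and the part of these markers in the value of Hmox1 was not tested. Markers of sinusoidal endothelium went the other way, 9 of 11 higher, with a summed level of 399.9 CPM in the library labelled knockout and 273 CPM in wild type.

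Ephx1, the microsomal epoxide hydrolase of drug metabolism, had 6707 reads or 348 CPM (340 to 356) in the library labelled knockout, against 10343 reads or 457 CPM (448 to 465) in wild type. Its intervals lay well apart, with a ratio of 0.762 (0.739 to 0.786) and a log2 ratio of -0.39, yet 1464 measured genes had a lower ratio. Ephx1 and Gclc, the most read members, went in opposite directions. Ephx1 made up 26.0% (25.4 to 26.5) of the 9 genes' reads in the library labelled knockout and 32.8% (32.3 to 33.4) in wild type. The share of Gclc was 34.6% (34.0 to 35.2) in the library labelled knockout and 28.2% (27.7 to 28.7) in wild type, and that of Nqo1 was 0.244% (0.187 to 0.312) in the library labelled knockout and 0.616% (0.532 to 0.709) in wild type. These shares have exact binomial intervals and need no scaling. Ephx1 reads per Gclc read were 0.751 in the library labelled knockout and 1.16 in wild type.

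**Figure D2:**
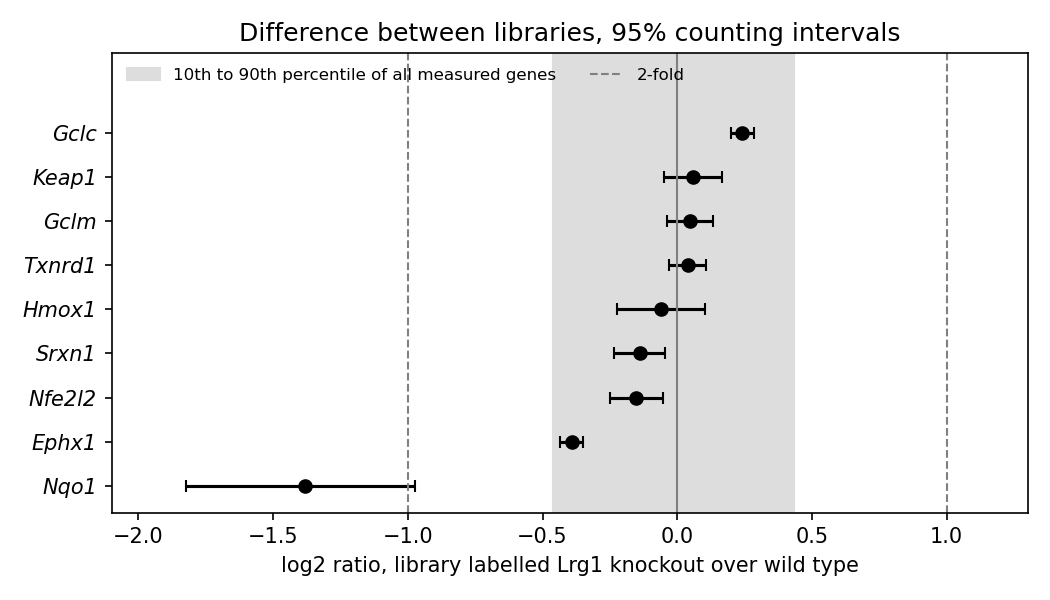
Log2 ratio of each gene (x axis, library labelled Lrg1 knockout over wild type) with its 95% counting interval, beside the range from the 10th to the 90th percentile of all 11411 measured genes (-0.46 to 0.43, grey) and the 2-fold lines (dashed). Of the 9 genes, Nqo1 alone lies outside the grey range, at -1.38.

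The 9 genes summed to 1340 CPM in the library labelled knockout and 1391 CPM in wild type, but the direction of this sum turned with the scaling. Scaled by total count, without TMM, it was 1379 CPM in the library labelled knockout and 1351 CPM in wild type. The median turned too, to 0.02 under scaling by total count, which moved the median of all measured genes by 0.08.

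**Figure D3:**
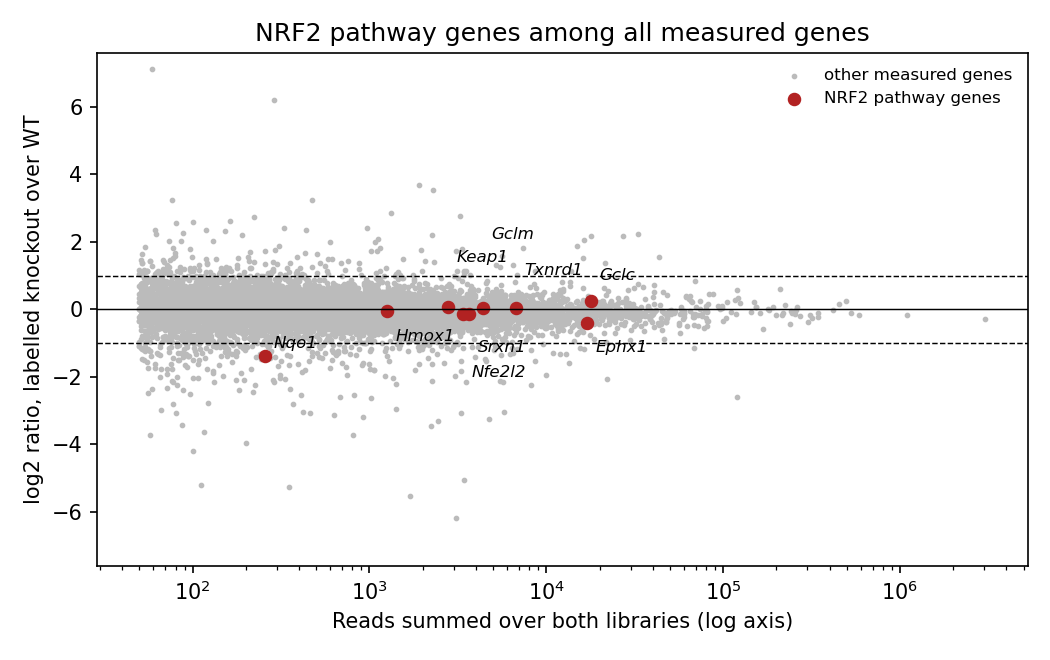
Log2 ratio (y axis, library labelled Lrg1 knockout over wild type) against reads summed over both libraries (x axis, log scale) for all 11411 measured genes in grey and the 9 NRF2 pathway genes in red, with 2-fold lines dashed. Nqo1, at 257 reads, lies below the lower line, and the other 8, from 1264 reads for Hmox1 to 17811 for Gclc, lie in the dense band around 0.

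Between genes, levels were compared per kilobase of exon (CPM divided by the union of exons of GENCODE M21 basic transcripts). In the library labelled knockout Ephx1 was highest at 200 CPM per kilobase, followed by Gclc at 135 and Txnrd1 at 39.8. Nfe2l2 at 30.7 and Srxn1 at 29.5 had overlapping counting intervals, as had Gclm at 19.1 and Hmox1 at 18.8, and Keap1 stood at 15.1. Nqo1 was lowest at 2.10 CPM per kilobase in the library labelled knockout and at 5.51 in wild type. The wild-type order was the same except that Hmox1 (19.6) and Gclm (18.5), whose intervals overlapped, changed places. Ephx1 reached 262 and Gclc 115 CPM per kilobase in wild type. With the length of the longest coding transcript, a choice made after seeing the data, Keap1 stood at 18.8 CPM per kilobase in the library labelled knockout, equal to Hmox1.

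Structure in the annotation may bear on some of these counts. Nqo1 (chromosome 8, 6 exons), Gclc (chromosome 9, 16 exons), Hmox1 (chromosome 8, 5 exons) and Srxn1 (chromosome 2, 2 exons) overlap 0 other annotated genes. Keap1, Gclm and Txnrd1 overlap genes on the opposite strand. Overlap was taken over whole gene spans, introns included, and overlap of exons was not computed. The strand setting of the counting is not given either. Whether reads of the overlapping genes entered the counts of Keap1, Gclm and Txnrd1 is therefore not known. Gclm and Ephx1 also overlap an annotated pseudogene on their own strand. Eid3, which shares its strand and place with Txnrd1, had 1 read in the library labelled knockout and 5 in wild type.

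Around the 9 genes, 75 other genes of the pathway were listed in 8 groups, and 68 were measured. Of these 1 was at least 2-fold higher in the library labelled knockout and 2 were at least 2-fold lower, against 1.71% and 2.49% of all measured genes. At 1.5-fold, 7 of the 68 were lower and 1 higher, against 6.91% and 5.89%. Small differences leaned one way: 55 of 68 were below 0, with a median log2 ratio of -0.15, while 5890 of 11411 measured genes were below 0. For 23 of the 68 the counting interval under TMM included no difference. The lists were chosen with earlier results of these data known, so the lean is a description only. Under scaling by total count 44 of the 68 were below 0, against 4592 of 11411 genes, with a median of -0.07. The lean was not particular to the pathway under TMM, with 9 of 11 hepatocyte and 12 of 14 macrophage markers below 0. Of endothelial markers 2 of 11 were below 0, and of stellate cell markers 2 of 8. With total count, 4 of 11 hepatocyte, 12 of 14 macrophage, 1 of 11 endothelial and 2 of 8 stellate cell markers were below 0.

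The regulators of NRF2 held the widest differences. Of 14 measured, 11 were lower and 3 higher, with a median of -0.13, and 10 were lower under total count, with a median of -0.05. Maff, a small MAF protein that can pair with NRF2 or form repressive dimers, had 53 reads in the library labelled knockout and 257 in wild type, a log2 ratio of -2.03 and 4.13-fold higher in wild type (3.06 to 5.66). Mafk, a second small MAF, was at -0.72 with 284 reads in the library labelled knockout and 550 in wild type. Mafg, the third of this family, was at -0.28, so the small MAFs shared a sign and differed in size. Maff reads per Mafg read were 0.0863 in the library labelled knockout and 0.294 in wild type, a ratio of ratios of 0.294 (0.211 to 0.404).

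BACH proteins compete with NRF2 for small MAF partners and DNA. Bach1, the haem-sensing repressor of Hmox1, was at -0.46 with 668 reads in the library labelled knockout and 1077 in wild type. Bach2, known best from B cells, was at 1.68 with 314 reads in the library labelled knockout and 115 in wild type, 3.21-fold higher (2.58 to 4.01), and 47 measured genes had a higher ratio. The repressor genes thus stood on opposite sides of 0. Bach1 reads per Nfe2l2 read were 0.455 in the library labelled knockout and 0.562 in wild type, a ratio of ratios of 0.810 (0.718 to 0.913). Cul3 (-0.06) and Rbx1 (0.03), the ligase parts that work with KEAP1, had intervals that spanned 0. Sqstm1, which encodes the autophagy receptor p62 that sequesters KEAP1, was at -0.18.

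In the glutathione group 5 of 8 measured genes were lower, with a median of -0.22. Under total count 5 of 8 were lower as well, with a median of -0.14, and the median was -0.08 with no filter on reads. Gpx4, which reduces lipid peroxides, was at -0.70 and Gss, the second enzyme of glutathione synthesis, at -0.28. Gsr, which regenerates glutathione, was higher at 0.27, near Gclc. Glrx, glutaredoxin, was at -0.26. Slc7a11, the cystine transporter and a common NRF2 target, had 2 reads in the library labelled knockout and 1 in wild type, at or under the 3 counts that a reading of 0 allows, so no comparison was possible at this depth.

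In the thioredoxin and peroxiredoxin group 8 of 11 were lower, with a median of -0.09. Under total count 6 of 11 were lower, with a median of -0.01. The median of all measured genes was then 0.07, with 4592 of 11411 lower, so the group still lay below it. Txnip, the inhibitor of thioredoxin, was at -0.65, Prdx3, the mitochondrial peroxiredoxin, at -0.36 and Txnrd2, the mitochondrial reductase, at -0.30. Prdx4, of the endoplasmic reticulum, was higher at 0.29. Gpx4, Txn1 and Prdx1 have processed pseudogenes in mouse, so their unique counts are uncertain.

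All 7 genes of NADPH supply were lower in the library labelled knockout, with a median of -0.23, where 5890 of 11411 measured genes were lower. For 2 of the 7, G6pdx (-0.22) and Me1 (-0.08), the counting interval included no difference. Pgd, an oxidative pentose phosphate enzyme, was at -0.73, with 403 reads in the library labelled knockout and 786 in wild type. Tkt and Taldo1 of the non-oxidative branch were at -0.47 and -0.45. H6pd, which serves the oxidative branch in the endoplasmic reticulum, was at -0.23. Several of these genes also serve fatty acid synthesis. Under scaling by total count 6 of 7 were lower, with a median of -0.15, and with a filter of 200 reads the median was -0.34.

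Among haem and iron genes 6 of 7 were lower, with a median of -0.16, and 5 of 7 under total count, with a median of -0.07. Fth1 and Ftl1, the ferritin subunits that store iron, were at -0.39 and -0.26; both have pseudogenes and are uncertain. Hmox2, the constitutive haem oxygenase, was at -0.22, and the ratio of Hmox1 to Hmox2 reads, 0.634 in the library labelled knockout and 0.569 in wild type, gave a ratio of ratios of 1.11 (0.966 to 1.29) that included no difference. Slc40a1, ferroportin, the iron exporter, was higher at 0.40.

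Of 11 measured quinone, carbonyl and epoxide enzymes, 10 were lower, with a median of -0.17, and 8 under total count, with a median of -0.09. Under TMM the counting intervals of 4 of the 11 included no difference, that of Nqo2 among them. Akr1b10, an aldo-keto reductase, was at -1.32 on 16 reads in the library labelled knockout and 48 in wild type. Aox1, aldehyde oxidase, was at -0.62 and Cbr1, a carbonyl reductase, at -0.38. Ephx2, the soluble epoxide hydrolase, went the other way from Ephx1 at 0.46, with 44630 reads in the library labelled knockout and 38229 in wild type. Nqo2, the nearest relative of Nqo1, had 1721 reads in the library labelled knockout and 2025 in wild type, 0.00 on the log2 scale.

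Conjugate exporters had a median of -0.07, 5 of 6 lower, and a median of 0.01 with 3 of 6 lower under total count. Abcg2, a transporter of drugs and urate, was at 0.43, Abcc3 at -0.31, Abcc2 at -0.08 and Abcc1, whose interval reached across 0, at -0.50. Superoxide and peroxide enzymes were nearly level, with 3 of 4 lower and a median of -0.06 that turned to 0.02 under total count. Cat, catalase, was at -0.07, Sod1 at 0.08, Sod2 at -0.05 and Sod3 at -0.17.

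**Figure D4:**
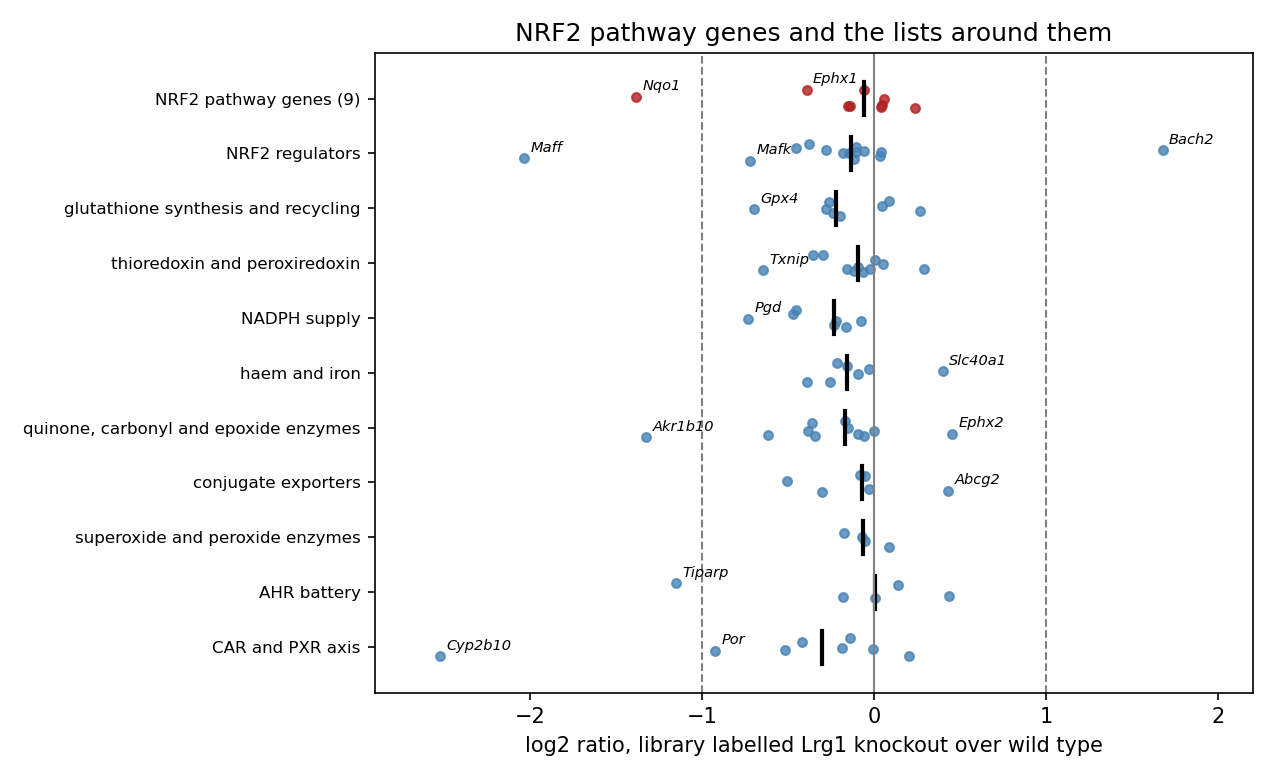
Log2 ratio (x axis, library labelled Lrg1 knockout over wild type) of each measured gene in the 9-gene set (red) and in 10 surrounding lists (blue), with each list's median as a black bar and 2-fold lines dashed; vertical scatter within a list has no meaning. Most genes lie between the 2-fold lines, with Nqo1, Maff, Akr1b10, Tiparp and Cyp2b10 to the left and Bach2 to the right.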

How the data were processed

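Per the labels' protocols, libraries were made from about 500 ng of RNA after poly(A) selection with a strand-marking kit and read as single ends of 50 bases. The submitters' processing notes name bcl2fastq, TopHat2, HTSeq and build mm9; the sources used here give neither their settings nor the annotation. Raw counts per gene symbol were taken as the authors deposited them. Lines that name no gene were left out of library sizes: 14.4% of unique alignments lay outside genes in the library labelled knockout and 14.0% in wild type, and the shares in several genes were 0.234% in the library labelled knockout and 0.231% in wild type. Non-unique alignments took 58.0% of all lines in the library labelled knockout and 50.3% in wild type.

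TMM factors (edgeR 4.0.16, R 4.3.3) were 1.03 for the library labelled knockout and 0.972 for wild type. One read was worth 0.0519 CPM in the library labelled knockout and 0.0441 CPM in wild type. Log2 ratios used a prior count of 0.5. The labels name no molecular identifiers, so reads are not independent molecules, and intervals cover counting error only. Scaling, ratios and intervals were tried on simulated Poisson counts, which hold counting error only. This checked the calculation and says nothing of variation between mice. All 9 genes are described. In each surrounding list other than the cell type markers, the 4 measured genes farthest from 0 were named. Of the cell type markers only some of these were named. Mafg, Cul3, Rbx1, Sqstm1, Nqo2, Slc7a11, Clec4f, Eid3, Cyp1a1, Cyp3a11, Alas2, Beta-s, Txn1, Prdx1, G6pdx and Me1 were named after their values were seen. Members and lists were chosen with earlier results of these data known. Akr1a1 and Adgre1 were matched through older symbols in RefSeq. Alternatives were total-count and DESeq2 1.42.0 scaling, thinning, another prior, and other filters and thresholds. Python 3.11.15, scipy 1.17.1, numpy 2.4.6, matplotlib 3.10.9 and pandas 2.3.3 were used.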

Additional observations from a re-analysis of the deposited data

How the results depend on the processing

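No paired analysis was possible because each group has 1 library, and for the same reason no library could be left out. Under 3 other scalings, thinning of the deeper library and a prior count of 2, the log2 ratio of Nqo1 ran from -1.42 to -1.30, Ephx1 from -0.39 to -0.31, Gclc from 0.23 to 0.32, Nfe2l2 from -0.16 to -0.07, Srxn1 from -0.15 to -0.06, Keap1 from 0.06 to 0.14, Gclm from 0.04 to 0.13 and Txnrd1 from 0.03 to 0.12. Hmox1 ran from -0.10 to 0.02. Whether a counting interval included no difference also turned with the scaling. Under total count, which raised log2 ratios by 0.08, the intervals of Keap1, Gclm and Txnrd1 lay above 0. Those of Nfe2l2 and Srxn1 then included 0, and leaving the 20 most abundant genes out of the total had the same result. The mean of the 9 genes was -0.19, lower than the median since it takes in Nqo1. At 3-fold, 0 of the 9 genes were lower. Counts over all genes follow the filter and threshold by construction, with 1246 genes higher and 1379 lower at 1 read or more, 461 higher and 519 lower at 10 or more, and 101 higher and 166 lower at 200 or more. Past 1.5-fold there were 672 higher and 788 lower genes, past 3-fold 52 higher and 105 lower. Depth limits Nqo1 most, since it rests on 257 reads.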

Other observations

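Nqo1 also belongs to the genes driven by the aryl hydrocarbon receptor (AHR), and Ephx1 to those driven by the nuclear receptors CAR and PXR. In the AHR list 5 of 7 genes were measured, 3 above and 2 below 0, with a median log2 ratio of 0.01. Tiparp, an AHR target that feeds back on the receptor, was at -1.15, with 89 reads in the library labelled knockout and 233 in wild type. Cyp1a2, a liver P450 under AHR control, was higher at 0.43, with 6392 reads in the library labelled knockout and 5554 in wild type. Ahr itself was at 0.14 and Cyp1b1 at -0.18. Cyp1a1, the classic inducible target, had 9 reads in the library labelled knockout and 18 in wild type, below the filter, with an interval that included no difference.

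In the CAR and PXR list 7 of 8 measured genes were lower, with a median of -0.30, where 5890 of 11411 measured genes were lower. The median was -0.19 with a filter of 10 or 200 reads or none. Under total count 6 of 8 were lower, with a median of -0.22, against 4592 of 11411 genes. Cyp2b10, the standard CAR target, had 12 reads in the library labelled knockout and 84 in wild type, a log2 ratio of -2.52 (5.96-fold higher in wild type, 3.24 to 12.0). Close copies among Cyp2b genes make this count uncertain. Por, the reductase that feeds electrons to microsomal P450s, was at -0.92, with 4463 reads in the library labelled knockout and 9949 in wild type. Nr1i2, which encodes PXR, was at -0.52 and Alas1, the first enzyme of haem synthesis, at -0.42. Cyp3a11, a main PXR target, was level at 0.00, with 26689 reads in the library labelled knockout and 31424 in wild type. It counts among the 7 lower genes, though its interval included no difference. Among the other markers compared, 6 of 8 measured stellate cell markers were higher (median 0.12, Col1a1 at -1.07), and 2 cholangiocyte, 1 erythroid and 3 neutrophil markers were measured, between -0.06 and 0.41. The 1 erythroid marker measured, Alas2, was at 0.28, and 4 listed globin genes were at 0 in both libraries. A further beta-globin, given under the older symbol Beta-s (Hbb-bs in RefSeq) and in no list, went the other way at -0.40, with 998 reads in the library labelled knockout and 1543 in wild type.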
